A study of Xiphophorus maculatus with 24 samples.

Results

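Skin collected at dawn (8 AM, zeitgeber time Zt 0.5) was compared with skin collected at dusk (8 PM) in male Xiphophorus maculatus Jp 163 A, an inbred platyfish line. All libraries labelled with these clock times were taken, which gave 8 of the 24 skin libraries of the series, 4 at dawn and 4 at dusk, with 1 fish per library. Each time is represented in 2 collections. Replicates A and B come from the second collection (the later library year, fish of 12 months by the labels) and replicates C and D from the first (the earlier library year, fish of 24 months by the labels). The study's methods state a single age for all fish, which is that of the second collection by the labels. By the labels, age and library year differ together and cannot be told apart. No fish was treated. All were described as of the 116th inbred generation, although the library labels carry this number only in the second collection. Whether the generation also differed between the collections cannot be read from the labels. All were held in a cycle of 13 h of light and 11 h of darkness, and were given flake food at 8 AM and brine shrimp at 3 PM. The dawn libraries follow lights on (Zt 0) and carry the clock time of the flake food, whereas the dusk libraries precede lights off. Time since light onset, time since feeding and circadian phase therefore cannot be told apart in this comparison.

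The circadian clock of vertebrates is a loop of transcription and repression. Clock and Bmal (arntl) proteins pair and activate genes through E-box motifs, and the Per and Cry proteins made from these genes repress the pair. Rev-erb and Ror receptors act on arntl, and the D-box factors Dbp, Tef and Hlf, opposed by Nfil3, pass the rhythm on to output genes. In fish the peripheral tissues can sense light directly, and in zebrafish per2 and a cry1 gene are induced by light.

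Total counts of the 8 libraries were between 25927255 and 36066368 reads on genes, so that 3 reads correspond to at most 0.116 CPM (the count scaled to a common library total). The tissue label was checked with the epidermal genes krt5 and epcam, which together made up 28420 to 36760 CPM at dawn and 26190 to 40590 CPM at dusk. The first principal component held 44.6% of the variance and separated the collections, and the second held 25.7% and placed all 4 dawn libraries opposite all 4 dusk libraries. Replicate pairs of a collection differed by more than sampling noise, so no library was counted as a repeat of another. The chi-square per degree of freedom was 17.2 at dawn and 13.7 at dusk in the second collection. In the first it was larger, at 66.4 and 71.2.

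Of 18771 genes tested, 2297 (12.2%) differed between dawn and dusk at an adjusted p under 0.05 in edgeR with collection as a covariate. The same direction in both collections was a condition of the call, and all 2297 genes met it. The fit counts opposite changes as spread, so genes with opposite changes could hardly pass, and this is no test of replication. Over all genes tested, 60.5% had the same direction. At dawn 1324 genes were higher (7.05% of those tested) and 973 were lower (5.18%). Changes in either direction were mostly moderate. The median log2 change, dawn over dusk, was 0.85 among the genes higher at dawn and -0.71 among the genes lower at dawn, against 0.03 over all genes tested. A change of more than 2-fold was found for 476 genes higher and 225 genes lower at dawn, and one of more than 4-fold for 90 and 20 genes. The 4 dawn and the 4 dusk libraries did not overlap for 2835 genes (15.1%), of which 1539 were among the 2297. Overlap was read on CPM from the library total, without the TMM scaling used for the calls. On that scale every dawn library was below every dusk library for 1838 genes and above for 997. The split by direction depended on the scaling, with 57.6% of called genes higher at dawn under TMM, 52.3% under RLE and 38.2% when total counts were used. The number of called genes fell to 1111, 767 and 1346 without dawn replicate A, B or C and to 739, 629 and 1280 without dusk replicate A, B or D. Fish were separate animals. The p-values measure the spread between fish within a collection, together with how far the dawn over dusk change differed between the collections.

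All 6 activator genes of the clock were lower at dawn, and in none did a dawn library reach the level of any dusk library. Over all genes tested, 5.18% were lower at dawn, and 9.79% had every dawn library below every dusk library. Here and below, only named genes could enter a list. Names came in part from the genes that the study called cyclic, so list genes and all genes are not like sets. The Bmal gene arntl1a had 7.34 and 3.27 CPM at dawn in the second collection and 6.42 and 5.32 CPM in the first, against 47.7 and 51.5 CPM and 54.9 and 50.9 CPM at dusk. Its log2 change was -3.13 ± 0.22 (SE, adjusted p = 0.000359), an 8.73-fold difference. The dusk levels of the 4 fish were close to each other although their collection differed. The Clock gene clocka had 5.94, 3.09, 9.08 and 8.35 CPM at dawn (replicates A to D), against 107, 101, 67.1 and 61.2 CPM at dusk. It was the called gene with the largest fall (log2 change -3.60 ± 0.38, adjusted p = 0.00172), and the fall was larger in the second collection (-4.49) than in the first (-2.76). The paralog clockb fell less, with a log2 change of -1.87 ± 0.13 (adjusted p = 0.000319). The Clock-like partner npas2 was expressed at a low level and fell by 2.34 on the log2 scale (adjusted p = 0.0016). For the second Bmal family, arntl2 had a log2 change of -2.01 ± 0.26 (adjusted p = 0.00418) and its copy ARNTL2 one of -1.31 ± 0.18 (adjusted p = 0.00536). These copies differed in the collection with the larger fall. arntl2 fell more in the second collection (log2 change -2.68, against -1.35 in the first), and ARNTL2 fell less there (-0.90, against -1.73 in the first).

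**Figure D1:**
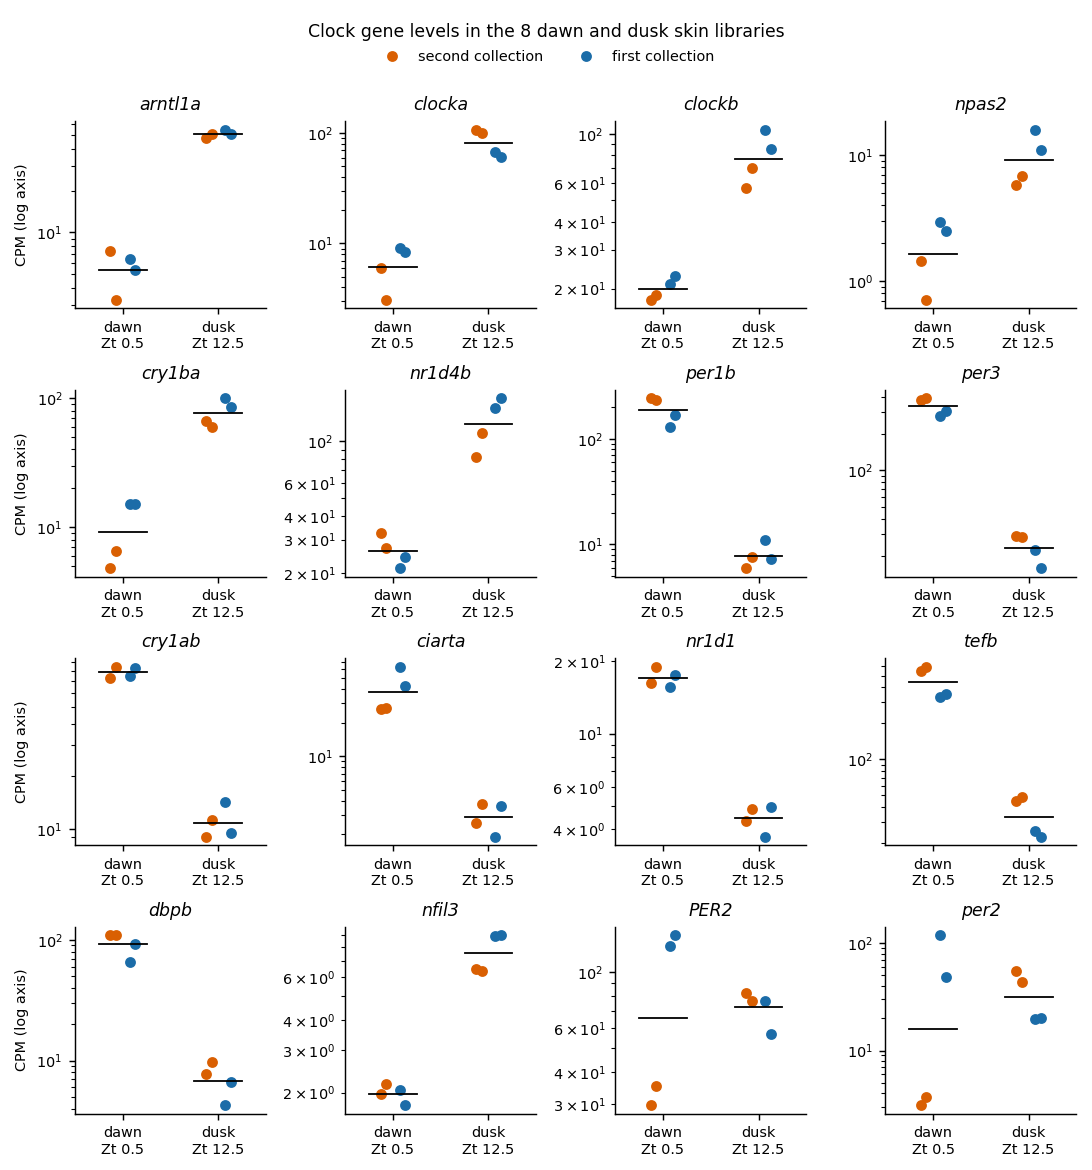
Level of 16 clock genes in CPM (log axis) in each of the 8 libraries, with dawn on the left and dusk on the right of each panel. Points are single libraries coloured by collection and black bars are geometric means of 4 libraries. Dawn and dusk points are apart in 14 panels, whereas in those of PER2 and per2 the first collection is high at dawn and the second is low.

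Among the 13 repressor genes of the clock that were tested, 7 were higher at dawn, 1 was lower and 5 did not pass the test. Of all genes tested, 7.05% were higher and 5.18% lower. per1b had the largest rise of all named genes. It had 242 and 233 CPM at dawn in the second collection and 129 and 169 CPM in the first, against 5.95 and 7.56 CPM and 10.9 and 7.24 CPM at dusk (log2 change 4.66 ± 0.27, 25.2-fold, adjusted p = 0.00014). The lowest dawn library of per1b thus lay far above the highest dusk library. per3, on chromosome 20 (chr20:22995275-23014650 in the RefSeq annotation of X_maculatus-5.0-male, matched by symbol), had 381, 391, 282 and 311 CPM at dawn (replicates A to D), against 29.2, 28.4, 22.3 and 15.7 CPM at dusk. Its rise was much the same in each collection (log2 change 3.78 in the second and 4.08 in the first). cry1ab had 72.6, 84.4, 74.4 and 82.7 CPM at dawn, against 9.04, 11.3, 14.2 and 9.46 CPM at dusk (log2 change 2.92 ± 0.17, adjusted p = 0.000137). The other genes higher at dawn were ciarta and its copy CIART, which encode Chrono-type repressors, with log2 changes of 3.77 ± 0.34 and 2.59 ± 0.40, and 2 copies of the E-box repressor Dec1, BHLHE40 and bhlhe40, with 3.53 ± 0.24 and 2.99 ± 0.19. One cryptochrome ran the other way. cry1ba had 4.80, 6.57, 15.1 and 15.1 CPM at dawn, against 66.4, 59.9, 99.6 and 84.6 CPM at dusk (log2 change -2.95 ± 0.22, adjusted p = 0.000461). The cry1 paralogs cry1ab and cry1ba therefore changed in opposite directions between the same libraries. cry2 averaged 24.3 ± 1.6 CPM at dawn and 24.1 ± 3.7 CPM at dusk (SD, n = 4 each) and did not pass the test (log2 change 0.09 ± 0.13, adjusted p = 0.684), and bhlhe41 did not either (0.57 ± 0.19, adjusted p = 0.0869).

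per2 and its paralog PER2, Period genes of which zebrafish per2 is known to respond to light, changed in opposite directions in the collections. per2 had 3.10 and 3.69 CPM at dawn in the second collection, against 54.8 and 43.9 CPM at dusk. In the first collection it had 119 and 48.7 CPM at dawn, against 19.8 and 20.2 CPM at dusk. The log2 change was -3.82 ± 0.41 in the second collection and 2.17 ± 0.36 in the first, a difference of -5.99 ± 0.54 (adjusted p = 0.00536 for the difference). PER2 followed the same pattern with smaller values. It had 29.6 and 35.4 CPM at dawn and 82.2 and 76.4 CPM at dusk in the second collection, and 126 and 140 CPM at dawn and 76.8 and 56.6 CPM at dusk in the first (difference of log2 changes -2.35 ± 0.26, adjusted p = 0.00554). Both genes therefore had no common direction, and their log2 changes over the 8 libraries (-0.70 ± 1.46 and -0.06 ± 0.45) did not pass the test. The third cry1 gene, cry1ab-Ohnolog2, had 101 and 108 CPM at dawn and 100.5 and 93.8 CPM at dusk in the second collection, against a dawn level of 123 and 129 CPM and a dusk level of 68.4 and 57.8 CPM in the first. Its log2 change was 0.14 in the second collection and 1.11 in the first, which differed by -0.97 ± 0.18 (adjusted p = 0.0178).

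Of 5 Rev-erb genes, 3 were higher at dawn, 1 was lower and 1 did not pass the test, and no Ror gene passed it. Of all genes tested, 12.2% passed. nr1d1 had 16.3, 19.0, 15.6 and 17.6 CPM at dawn (replicates A to D), against 4.34, 4.86, 3.72 and 4.96 CPM at dusk (log2 change 2.02 ± 0.15, adjusted p = 0.000386). nr1d2a and nr1d2b rose by 1.76 ± 0.30 and 1.39 ± 0.17 on the same scale. nr1d4b, a Rev-erb gene of fish, was lower at dawn in every library, with 32.7, 27.1, 21.1 and 24.3 CPM at dawn against 82.2, 111, 150.0 and 169 CPM at dusk (log2 change -2.17 ± 0.23, adjusted p = 0.00172). Its paralog nr1d4a (0.20 ± 0.17) and the 4 Ror genes rora, rorb, rorca and rorcb (between -0.38 and 0.80) did not pass the test.

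Of 8 D-box factor genes, 7 passed the test, against 12.2% of all genes tested. Among the genes that passed, the directions followed the known split into activators and repressors with 1 exception. The activators tefb and dbpb were among the genes with the largest rise. tefb had 545, 592, 331 and 351 CPM at dawn, against 44.6, 48.1, 24.8 and 22.4 CPM at dusk, and its adjusted p of 5.36e-06 was the lowest of the named genes (log2 change 3.81 ± 0.12). dbpb rose by 3.83 ± 0.20, tefa by 0.99 ± 0.10 and HLF by 0.91 ± 0.23 on the log2 scale. The repressor nfil3 had 1.97, 2.17, 2.05 and 1.78 CPM at dawn, against 6.45, 6.36, 8.85 and 8.94 CPM at dusk (log2 change -1.85 ± 0.17, adjusted p = 0.00105), and its paralog nfil3-5 fell by 1.57. The exception was hlfa, named for an activator, which was lower at dawn (log2 change -0.68 ± 0.12, adjusted p = 0.0138) whereas HLF was higher. A further nfil3 paralog, nfil3-6, had 28.2 and 37.5 CPM at dawn in the second collection and 128 and 57.8 CPM in the first, all above the dusk libraries (8.46 to 22.0 CPM). Its direction was thus opposite to that of nfil3 and nfil3-5. It did not pass the test over both collections (adjusted p = 0.0513), and its log2 change was 0.69 in the second collection and 3.28 in the first (difference -2.59 ± 0.51, adjusted p = 0.0204).

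The change differed between the collections for 5 of 9 genes for enzymes that modify clock proteins, against 11.4% of all genes. Of the 9 genes, 3 were higher at dawn (33.3%, against 7.05% of all genes) and none was lower. These were the casein kinase 1 genes csnk1e (log2 change 0.96 ± 0.14, adjusted p = 0.00599) and csnk1db (0.80 ± 0.18, adjusted p = 0.0276), whose products phosphorylate Per proteins, and the deubiquitinase gene usp2a (0.98 ± 0.21, adjusted p = 0.0243). cipcb, named for a Clock-interacting repressor, was outside these lists and rose 8.83-fold (log2 change 3.14 ± 0.15, adjusted p = 4.62e-05), with 36.3 to 52.0 CPM at dawn and 4.20 to 6.70 CPM at dusk. Among light-dependent DNA repair genes, the CPD photolyase zgc:66475 had 29.9 to 38.5 CPM at dawn and 47.6 to 64.7 CPM at dusk (log2 change -0.69 ± 0.15, adjusted p = 0.0216). cry-dash did not pass the test (0.34 ± 0.15, adjusted p = 0.168), and the photolyase gene cry5, whose name was not matched to an identifier, was not analysed here. Of 20 nucleotide excision repair genes, ercc2 and ercc5 were lower at dawn (-0.73 ± 0.19 and -0.68 ± 0.18) and 18 did not pass the test. The share of 10.0% was near the 12.2% of all genes called in either direction, and 5.18% of all genes were lower.

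The libraries of the other time points, given as a description, place dawn and dusk within the day of each gene. arntl1a averaged 34.0 CPM at 2 PM and 4.30 CPM at 2 AM in the second collection, where dusk was its highest and 2 AM and dawn its lowest times. In the first collection it averaged 23.5 CPM at 11 PM, 7.64 CPM at 2 AM and 4.95 CPM at 5 AM. Its lowest levels there lay in the later dark hours and at dawn. per1b averaged 320 CPM at 2 AM in the second collection and 309 CPM at 5 AM in the first, above both dawn means (237 and 149 CPM). nr1d1 was likewise higher in the dark than at dawn, with 58.0 CPM at 2 AM in the second collection and 47.8 CPM at 5 AM in the first. nr1d4b reached 299 CPM at 2 AM in the second collection and 230 CPM at 11 PM in the first, later than dusk. The dawn level of per2 in the second collection (mean 3.40 CPM) was close to its 2 AM level there (1.86 CPM), whereas in the first collection the dawn level (83.6 CPM) was close to that of 11 AM (94.98 CPM) and far from that of 5 AM (5.53 CPM). The called genes were chosen by these same dawn and dusk libraries. This favours dawn as the highest time of genes called higher at dawn, and dusk for those called lower. The shares that follow are thus a description and not evidence on peak time, and no share over all genes stands beside them. Among 8 AM, 2 PM, 8 PM and 2 AM, dawn was the highest for 995 of the 1324 genes called higher at dawn (75.2%) in the second collection and for 869 (65.6%) in the first. Of the 973 genes called lower at dawn, dusk was the highest of these times for 898 (92.3%) in the second collection and for 425 (43.7%) in the first, in which 540 (55.5%) were highest at 2 PM. Over all 8 times of the first collection, dawn was the highest for 497 (37.5%) and 5 AM for 400 (30.2%) of the genes called higher at dawn, and dusk was the highest for 318 (32.7%) and 2 PM for 478 (49.1%) of those called lower.

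**Figure D2:**
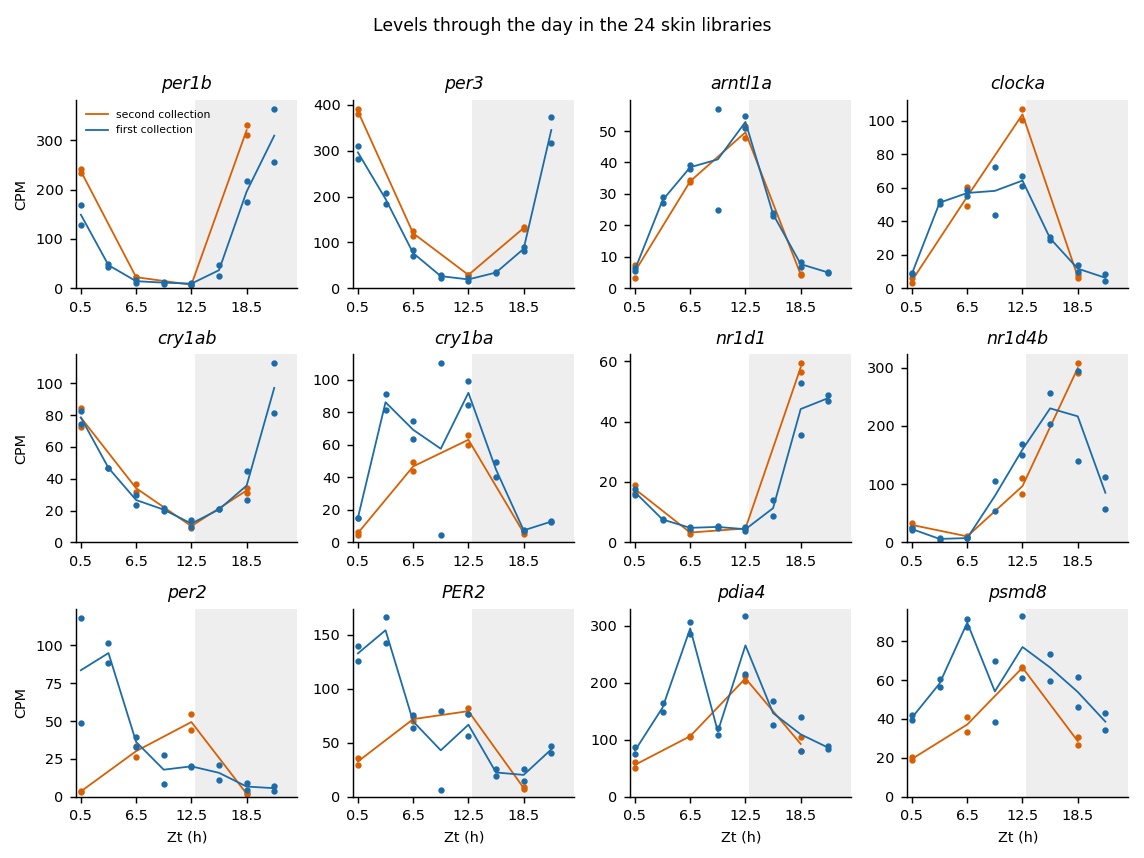
Level in CPM of 12 genes against zeitgeber time in hours (Zt 0.5 is 8 AM and Zt 6.5 is 2 PM), with points for single libraries and lines through the means of the second (orange) and the first (blue) collection. The grey area marks the dark phase. The first collection has all 8 time points and the second has 4. The collections run together for per3 and arntl1a, and part at dawn for per2 and PER2.

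The collections were also read against each other, since they share no library. Each collection alone, with 2 fish per time, called 6450 genes in the second and 298 in the first. Replicate pairs also lay further apart in the first collection than in the second. The part of this spread in the numbers of called genes was not tested. Of the 298 genes called in the first collection, 250 (83.9%) had the same direction in the second, and of the 6450 called in the second, 4406 (68.3%) had the same direction in the first. Over all genes tested the directions were the same for 60.5%. Across genes, which are not independent replicates, the log2 changes of the collections had a Pearson r of 0.27. The median size of the log2 change was 0.43 in the second collection and 0.28 in the first. A test of the difference between the collections called 2146 genes (11.4% of those tested), of which 1395 changed in opposite directions, 909 of them lower at dawn in the second collection and higher in the first. The 5 named genes with the lowest p for the difference were all lower at dawn in the second collection and higher in the first by the sign of their log2 change. lipg, the endothelial lipase gene, had 7.03 and 6.0 CPM at dawn and 36.9 and 29.2 CPM at dusk in the second collection, and 86.4 and 66.1 CPM at dawn and 24.9 and 28.0 CPM at dusk in the first (difference -3.95 ± 0.25, adjusted p = 0.00224). elovl1a, a fatty acid elongase gene, had 9.64 and 9.59 CPM at dawn and 12.8 and 10.5 CPM at dusk in the second collection, against 70.27 and 68.5 CPM at dawn and 10.4 and 11.5 CPM at dusk in the first. The other genes were etnk2, an ethanolamine kinase gene, ENTPD7 and si:ch1073-55a19.2, with differences of -2.65, -2.14 and -2.06. The number of genes that differed between the collections was unstable. It fell to 205 without dusk replicate A, to 583, 1045, 1030 and 1059 without dawn replicate A, B, C or D, and to 639 without dusk replicate B.

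**Figure D3:**
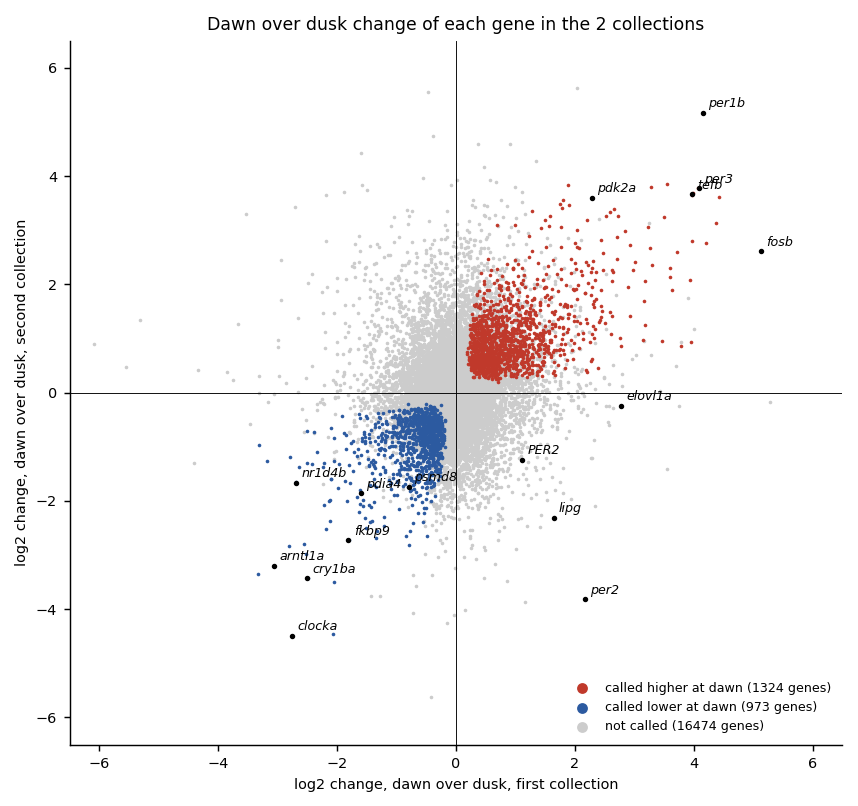
Log2 change, dawn over dusk, of each of the 18771 genes in the first collection (horizontal axis) and the second collection (vertical axis). Red and blue points are the 1324 genes called higher and the 973 called lower at dawn, which lie where the signs match by the rule of the call, and grey points are not called. Named genes in the lower right, such as per2 and lipg, were lower at dawn in the second collection and higher in the first.

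Outside the core clock, the largest rises with no overlap of libraries included fosb, a subunit gene of the AP-1 factor, and ankrd9, an ankyrin repeat gene. fosb had 3.06, 6.39, 119 and 17.3 CPM at dawn (replicates A to D), against 0.717, 0.887, 1.96 and 2.22 CPM at dusk. Its log2 change of 4.11 ± 0.79 (adjusted p = 0.0166) thus rested in large part on 1 library of the first collection. ankrd9 had 18.6, 30.4, 67.5 and 62.3 CPM at dawn, against 3.26, 4.20, 4.02 and 3.59 CPM at dusk (log2 change 3.5 ± 0.34, adjusted p = 0.00132). Among named genes with a mean of at least 5 CPM and no overlap, those with large falls outside the clock included fkbp9 (-2.27 ± 0.28), kcnab1b (-2.17 ± 0.42), entpd5a (-2.15 ± 0.20) and calub (-1.92 ± 0.25). kcnab1b encodes a potassium channel subunit. The products of the other three are proteins of the secretory pathway, a peptidyl-prolyl isomerase, a nucleoside diphosphatase of the endoplasmic reticulum (ER) and the calcium-binding calumenin.

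ER folding and N-glycosylation genes were lower at dawn in both collections. This list was drawn up after the values of some of its genes had been seen, so its count is a description. Of 76 genes tested, 39 were lower at dawn (51.3%, against 5.18% of all genes) and none was higher. The median log2 change was -0.55 (-0.84 in the second collection and -0.41 in the first), against 0.03 over all genes. The change differed between the collections for 19 of the 76, against 11.4% of all genes. The first collection alone called 2 of the 76 lower, and the second alone 50. For 45 of the 76 genes every dawn library was below every dusk library, which held for 9.79% of all genes. pdia4, a protein disulfide isomerase gene (chr21:13710943-13715245), had 61.2, 49.99, 86.5 and 74.6 CPM at dawn, against 203, 212, 214 and 316 CPM at dusk (log2 change -1.73 ± 0.14, adjusted p = 0.000618). The ER lectin chaperone gene calr had 36.9, 34.4, 59.9 and 38.2 CPM at dawn, against 126, 118, 119 and 152 CPM at dusk (-1.54 ± 0.16, adjusted p = 0.00172). hsp90b1, the gene of the ER Hsp90 (chr2:20400957-20407709), fell by 1.70 on the log2 scale (adjusted p = 0.00252). The fall reached the enzyme that transfers the sugar chain, with ddost (-1.07 ± 0.12), stt3a (-0.88) and rpn2 (-1.21), the signal peptidase gene sec11a (-0.82) and the glycoprotein sensor gene uggt1 (-1.01). The summed level of the 76 genes was 4887, 4796, 6196 and 5930 CPM at dawn, against 8112, 7933, 7890 and 9603 CPM at dusk, with no overlap. The number of genes lower at dawn was 24 without dawn replicate B and 25 without dusk replicate B, and the median log2 change stayed between -0.71 and -0.51 whichever library was left out.

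Proteasome genes showed the same direction. Of 34 tested, 25 were lower at dawn and 1, psmd10, was higher (0.94, adjusted p = 0.0254). Of all genes tested, 5.18% were lower and 7.05% higher. A negative log2 change in both collections was found for 31 of the 34, and for 5243 of all 18771 genes tested. The change differed between the collections for 15 of the 34, against 11.4% of all genes. The first collection alone called 0 of the 34 lower, and the second alone 31. The median log2 change was -0.65, with -1.0 in the second collection and -0.39 in the first. psmd8, a subunit gene of the regulatory particle, had 20.2, 18.6, 41.9 and 39.4 CPM at dawn, against 66.6, 66.2, 61.0 and 93.0 CPM at dusk (log2 change -1.27 ± 0.21, adjusted p = 0.0103). psma5 and psma2, of the outer ring of the core particle, fell by 1.03 and 0.94 on the log2 scale (adjusted p = 0.00496 and 0.0153). The summed level of the 34 genes was 1441, 1347, 2395 and 2383 CPM at dawn, against 2760, 2780, 3013 and 3737 CPM at dusk. The count was less stable than the median, with 3 and 4 genes lower at dawn without dawn replicate A or B and 4, 2 and 15 without dusk replicate A, B or D, while the median stayed between -0.85 and -0.58. Of 28 heat shock protein and chaperone genes, 4 were lower and none was higher. This share of 14.3% was near the 12.2% of all genes called in either direction and above the 5.18% lower. For 8 of the 28 every dawn library was below every dusk library, which held for 9.79% of all genes. The 3 called genes with the lowest p were hsp90b1, dnajb5 (-1.72 ± 0.24) and dnajc3b (-0.68 ± 0.15), of which hsp90b1 and dnajc3b encode proteins of the ER. The number lower was 2 without replicate A or B of either time and 12 without dusk replicate C. Cytosolic ribosomal protein genes stood in contrast, as none of 49 passed the test and their log2 changes lay between -0.21 and 0.17. Of the 49, 47 had a positive log2 change. Their summed level was 61630 and 58780 CPM at dawn against 54040 and 55930 CPM at dusk in the second collection. In the first it was 50640 and 51570 CPM at dawn against 53950 and 54600 CPM at dusk. The sums thus moved in opposite directions in the collections and overlapped over the 8 libraries.

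**Figure D4:**
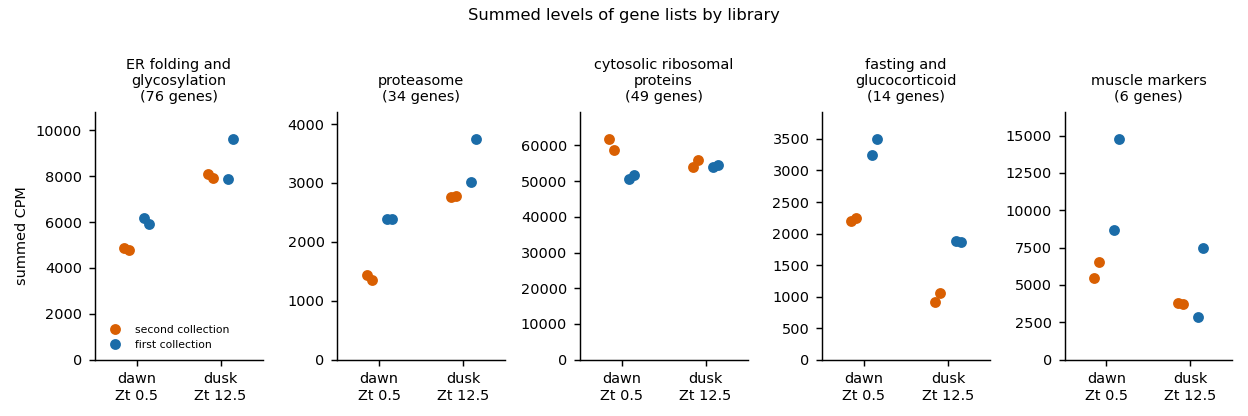
Summed CPM (axes from 0) of 5 gene lists in each library, dawn on the left and dusk on the right, coloured by collection. ER and proteasome sums were lower at dawn with no overlap. Ribosomal protein sums overlapped over all libraries, higher at dawn in the second collection and lower in the first. The sums of fasting and glucocorticoid genes and of muscle markers were higher at dawn within each collection.

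Genes known to rise with fasting or glucocorticoids were higher at dawn. Of 14 tested, 11 were higher (78.6%, against 7.05% of all genes) and none was lower. The median log2 change was 1.1 (1.14 in the second collection and 0.93 in the first). The change differed between the collections for 8 of the 14, against 11.4% of all genes. The first collection alone called 3 of the 14 higher, and the second alone 12. For 7 of the 14 genes every dawn library was above every dusk library, which held for 5.31% of all genes. pdk2a, a kinase gene that restrains the entry of pyruvate into the citrate cycle, had 96.2, 97.3, 154 and 181 CPM at dawn, against 7.39, 9.03, 42.4 and 32.1 CPM at dusk (log2 change 2.92 ± 0.28, 7.59-fold, adjusted p = 0.00132). The transcription factor gene foxo3 (chr15:9637980-9680180) had 162, 187, 155 and 228 CPM at dawn, against 80.4, 92.4, 103 and 81.4 CPM at dusk (1.11 ± 0.16, adjusted p = 0.00552). txnipa, whose product restrains glucose uptake, had a log2 change of 0.92 ± 0.14, sesn1 one of 1.26, the mitochondrial fatty acid import gene cpt1ab one of 0.85 and the lipase inhibitor gene angptl4 one of 1.09. The glucocorticoid target genes SGK1 and klf9 rose by 0.73 and 2.32 on the log2 scale. The number of these genes higher at dawn was 4, 5 and 7 without dusk replicate A, B or D and 4 without dawn replicate B, with a median between 0.95 and 1.19. Skeletal muscle transcripts moved with this group. All 6 muscle markers had a positive log2 change (0.87 to 1.30), as had 9850 of all 18771 genes tested. Of the 6 markers, ckmb passed the test (0.87 ± 0.17, adjusted p = 0.0185). Their summed level was 5463, 6548, 8663 and 14740 CPM at dawn, against 3797, 3717, 2826 and 7462 CPM at dusk. The part of muscle in the fasting and glucocorticoid result was not tested. In bulk skin, fewer cells of a type and less RNA per cell cannot be told apart. The leukocyte, bone and scale, and nerve markers that were tested, 2 of each, did not pass the test, and no blood marker was matched.

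Immediate early genes, which respond within minutes to stimuli, all had a positive log2 change over the 8 libraries. Of all 18771 genes tested, 9850 had one. A positive change in both collections was found for 16 of the 19 immediate early genes tested and for 6108 of all genes. Of the 19 genes, 7 were higher at dawn (36.8%, against 7.05% of all genes), with a median of 1.09 (0.71 in the second collection and 1.84 in the first). The first collection alone called 1 of the 19 higher, and the second alone 5. jun had 100.2, 105, 133 and 107 CPM at dawn, against 58.8, 69.6, 76.2 and 80.9 CPM at dusk (log2 change 0.72 ± 0.11, adjusted p = 0.00629). KLF6 and klf6a, copies of a Krüppel-like factor gene, rose by 0.76 ± 0.10 and 1.57 ± 0.23. Their number was 4, 4 and 3 without dusk replicate A, B or D and 4 without dawn replicate B or C. In a list of 13 Krüppel-like factor genes, also drawn up after values had been seen, 6 were higher at dawn and none was lower. The share higher was 46.2%, against 7.05% of all genes. This list shares members with the immediate early list, KLF6 and klf6a among them, and shares klf9 with the fasting and glucocorticoid list. The counts of these lists are therefore not independent. klf13 had 14.9, 14.7, 36.3 and 25.6 CPM at dawn, against 5.95, 6.94, 11.6 and 9.40 CPM at dusk (1.46 ± 0.17, adjusted p = 0.00252), and KLF15 rose by 1.61 (adjusted p = 0.0206). Without dusk replicate A, B or D, or dawn replicate B, 3 of the 13 were higher. The cold-inducible RNA-binding gene cirbpa had 1595, 1626, 1303 and 1408 CPM at dawn, against 2144, 2211, 2346 and 2263 CPM at dusk, a small difference without overlap (log2 change -0.52 ± 0.08, adjusted p = 0.00831).

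Sterol and fatty acid synthesis genes were more often lower than higher at dawn, with 8 of 32 lower, 1 higher and a median log2 change of -0.49. Of all genes tested, 5.18% were lower and 7.05% higher. The change differed between the collections for 10 of the 32, against 11.4% of all genes. The first collection alone called 1 of the 32 lower, and the second alone 13. scd, the gene of the desaturase that makes monounsaturated fatty acids, had 5.94, 5.79, 4.01 and 4.41 CPM at dawn, against 25.3, 22.95, 18.6 and 13.9 CPM at dusk (-1.92 ± 0.14, adjusted p = 0.000416). The lipogenic transcription factor gene srebf1 had 41.3, 42.6, 55.8 and 56.8 CPM at dawn, against 137, 125, 101 and 106 CPM at dusk (-1.18 ± 0.17, adjusted p = 0.00627), and its fall was larger in the second collection (difference -0.85 ± 0.15, adjusted p = 0.0146). The sterol desaturase gene sc5d (-1.32 ± 0.19) and the sterol isomerase gene ebp (-1.92) were also lower, and the single gene higher at dawn was acacb (0.73), an acetyl-CoA carboxylase gene. The count of genes lower was 5 without dusk replicate A, dawn replicate B or dawn replicate C and 4 without dusk replicate B.

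Structural genes of skin moved in both directions. Of 48 extracellular matrix and integrin genes, 4 were higher and 7 were lower at dawn (22.9% called, against 12.2% of all genes), and the median log2 change was -0.11. The hemidesmosome integrin genes itgb4 and itga6a moved in opposite directions, but at very different levels. itgb4 had 1819, 1924, 1892 and 1580 CPM at dawn, against 1133, 1088, 1137 and 1067 CPM at dusk (log2 change 0.78 ± 0.08, adjusted p = 0.00172). itga6a, named for its partner chain, had only 8.62, 7.14, 3.08 and 2.80 CPM at dawn, against 16.7, 13.4, 6.83 and 8.49 CPM at dusk. It was lower at dawn within each collection, with overlap over the 8 libraries (-1.07 ± 0.16, adjusted p = 0.00612). At these levels, itga6a does not show how the partner of most itgb4 transcripts changed. The membrane metalloproteinase gene mmp14b had 264, 233, 150 and 150 CPM at dawn, against 440, 416, 291 and 355 CPM at dusk (-0.87 ± 0.10). The collagen gene col1a2 (-1.38) and the fibronectin gene fn1a (-0.73) were also lower. The number of genes lower was 4 without dusk replicate A or B, 11 without dusk replicate C and 3 without dawn replicate B or C. Of 9 keratinocyte and junction genes 4 were higher (44.4%, against 7.05% of all genes) and none lower. The 4 were the periplakin gene ppl (0.85 ± 0.20), the claudin gene cldn7a (1.30 ± 0.34) and 2 genes named krt98 (0.92 ± 0.22 and 1.0). At most 2 genes of the list were called higher when any 1 library was left out. Of 21 pigment cell genes the pteridine synthesis gene gch2 (-0.88 ± 0.18), the melanosome transport gene rab27a (-0.48 ± 0.13) and slc45a2 (-0.93 ± 0.23), a melanosome transporter gene at a low level of 1.46 to 4.11 CPM, were lower and none was higher. This share of 14.3% was near the 12.2% of all genes called in either direction and above the 5.18% lower. The median log2 change of the list was 0.11.

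The remaining lists had called shares on either side of the 12.2% of all genes tested. Of 27 splicing factor genes, 3 were higher and 2 lower, a called share above that of all genes, with a median log2 change of -0.31. For 10 of the 27 every dawn library was below every dusk library, which held for 9.79% of all genes. The change differed between the collections for 12 of the 27, against 11.4% of all genes. Called genes of this list included the kinase gene clk4a at 0.63 ± 0.15 and the U2 particle genes sf3b1 and sf3a1 at 0.46 ± 0.12 and -0.44 ± 0.12. Of 45 replication and mitosis genes, 2 were lower, cdkn1a (-0.94 ± 0.20), which encodes an inhibitor of cell division, and rrm1 (-0.90 ± 0.19), which encodes a subunit of ribonucleotide reductase. Of 47 oxidative phosphorylation genes, 3 were higher and 2 lower with a median of 0.03, which is that of all genes. NDUFS1 and ndufs4 of complex I were higher by 1.02 and 0.46, and COX7A2 of complex IV was lower (-0.62 ± 0.14). The shares called were 4.44% in the replication list and 10.6% in the oxidative phosphorylation list.

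**Figure D5:**
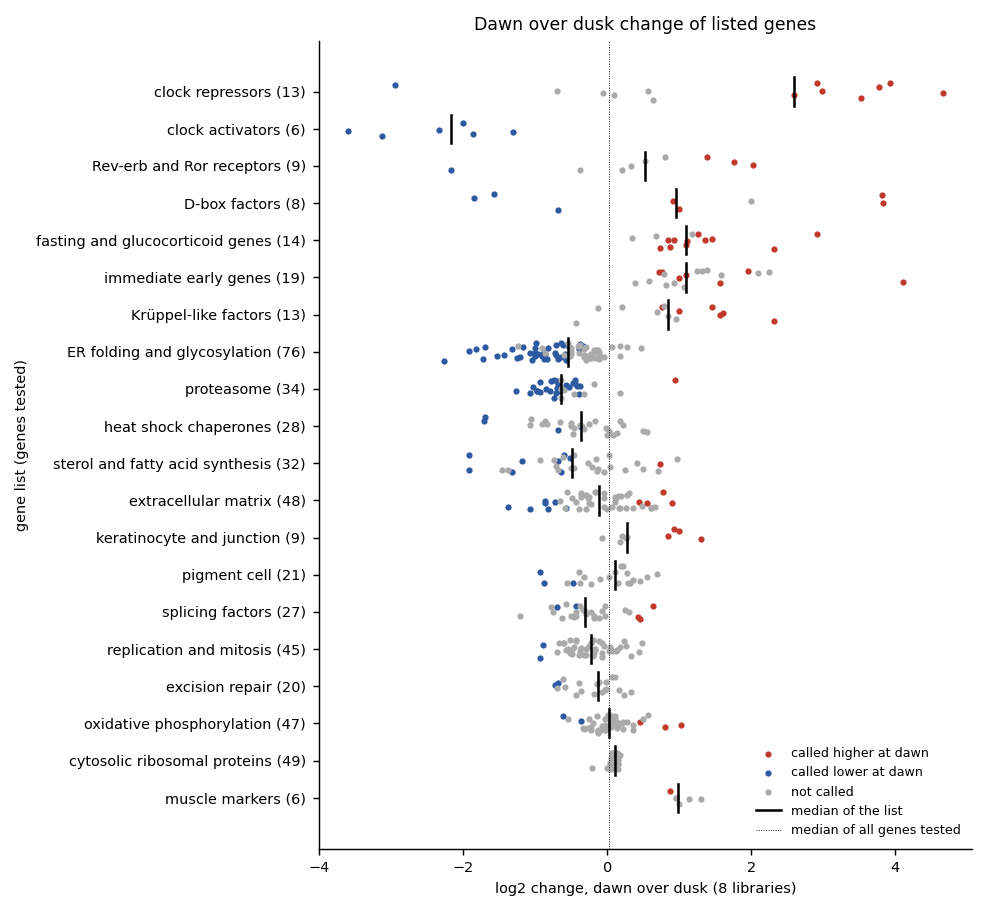
Log2 change, dawn over dusk, of each tested gene of 20 lists over the 8 libraries. Points are genes, red where called higher and blue where called lower at dawn, black bars are list medians and the dotted line is the median of all genes. Clock activators lie to the left of the line, ER and proteasome genes mostly to the left, and fasting and glucocorticoid and immediate early genes to the right.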

How the data were processed

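Read counts per gene from skin RNA-Seq were analysed. The authors trimmed and quality-filtered paired-end reads, mapped them to X. maculatus genome version 5.0 with TopHat2, counted them on Ensembl release 94 gene models with featureCounts, and deposited raw counts of 24209 genes without pooling. Program versions and the handling of strand and of multi-mapping reads were not given in the sources used here, so counts of near-identical copies and of overlapping genes are uncertain. CPM were computed from the library total.

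Dawn was compared with dusk over 8 libraries with edgeR 4.0.16 (limma 3.58.1, R 4.3.3). The quasi-likelihood test was used with collection as covariate, TMM, filterByExpr and Benjamini-Hochberg adjustment over all genes tested. A call needed an adjusted p under 0.05 and the same direction in both collections. Log2 changes within a collection, and the difference between collections (second minus first), came from a fit with 1 mean per collection and time. Values after ± are SE unless SD is stated.

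Names came from pairs of identifier and name in the study's supplementary tables, for 10794 genes. These tables list genes that the study called cyclic in any organ, skin included, single-copy genes and clock genes. Only named genes could enter a list. Of 9834 named genes tested, 1468 were called, against 2297 of all 18771 genes tested. Shares over all genes are therefore not shares over genes with the same way into a list. Genes with tied readings, 87 in number, were left without a name. Of the 10794 genes, 5829 matched a RefSeq symbol of X_maculatus-5.0-male, which gave coordinates. The named genes were all tested members of the clock, Rev-erb, D-box and photolyase lists, the 10 largest rises and 10 largest falls among called, named genes with a mean of at least 5 CPM and no overlap, up to 3 called genes of lowest p from each other list, and the 5 with the lowest p for a difference between collections. Further genes of a list were chosen after their values were seen, as was cipcb as an example of the largest rises. Members and lists were chosen with earlier results of these data known. Sequences were not used here.

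In counts simulated from these 8 libraries (18608 genes tested), 0 of 50 genes changed by 0.5 log2 units were recovered, 31 of 50 at 1, 47 of 50 at 1.5 and 50 of 50 at 2. The simulation held few changed genes and no difference between collections. Its adjusted p was therefore stricter than in the data, where 2297 genes were called, and it does not give the power of this comparison. Alternatives were RLE, total counts, DESeq2 1.42.0, other filters, no collection term, a replicate block, all 24 libraries, each collection alone and leaving out each library. Python 3.11.15 and matplotlib 3.10.9 were used for summaries and figures.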

Additional observations from a re-analysis of the deposited data

Results flagged for a closer look

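Among the 93 named genes, 186 groups of 4 libraries were examined for a library far from the rest of its group. Such a library was found in 7 groups. By chance, about 1 in 20 groups would hold one if all values came from a single population. Each group here held fish of both collections, so that rate does not apply. Dusk replicate D was the far library for ddost (221 CPM), dnajc3b (45.8 CPM) and pdia4 (316 CPM), each the highest of its group, and for sf3b1 (910 CPM), the lowest. Dawn replicate C was the far library for calr (59.9 CPM) and fosb (119 CPM), and dawn replicate A for rora (2.46 CPM).

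The dawn over dusk change differed between the collections in 23 named genes by the test of the difference (second minus first, log2). A lower value in the second collection was found for per2 (-5.99), lipg (-3.95), elovl1a (-3.02), etnk2 (-2.65), nfil3-6 (-2.59), PER2 (-2.35), ENTPD7 (-2.14), si:ch1073-55a19.2 (-2.06), clocka (-1.73), ankrd9 (-1.44), arntl2 (-1.33), klf6a (-1.14), cry1ab-Ohnolog2 (-0.97), csnk1db (-0.87), psma2 (-0.85), srebf1 (-0.85), ercc2 (-0.83) and nr1d2b (-0.79). A higher value was found for kcnab1b (1.91), pdk2a (1.32), nr1d4b (1.03), ARNTL2 (0.83) and txnipa (0.63). Of these genes, clocka, arntl2, psma2, srebf1, ercc2, kcnab1b, nr1d4b and ARNTL2 were lower at dawn in both collections, and ankrd9, klf6a, csnk1db, nr1d2b, pdk2a and txnipa were higher in both.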

How the results depend on the processing

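Of the 76 named genes called, 26 kept their call and direction under all 18 alternatives, among them per1b, per3, cry1ab, cry1ba, arntl1a, clocka, clockb, npas2, nr1d1, tefb, dbpb, pdk2a, pdia4 and scd. Counts moved more. With total counts as library size, 1610 genes were lower at dawn. DESeq2 called 4096 genes, 2091 higher and 2005 lower. Without a collection term 488 genes were called, 310 higher and 178 lower, with 44 of the named genes. With all 24 libraries 1284 were called, 567 of them higher. The first collection alone called 250 genes of the same direction in both, 192 higher and 58 lower, with 35 of the named genes, and the second alone 4406, 2146 higher and 2260 lower. Leaving out 1 library gave 629 to 3061 called genes, 391 to 1435 higher and 238 to 1626 lower, 53 to 71 named genes, and 205 to 2678 genes that differed between the collections.

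Samples share replicate letters across dawn and dusk, but nothing in the labels pairs them. Deviations of same-lettered libraries from the mean of their collection and time correlated at 0.11 in the second collection and at 0 in the first. With 2 libraries per mean, both letters of a collection give the same value. The letters were not taken as pairs. A replicate block called 611 genes, 419 higher and 192 lower. Fewer residual degrees of freedom remain in that fit. Of the proteasome genes 2, and of the ER genes 23, were lower at dawn under the block.

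Reversed log2 changes, all of genes without a call, were lipg 0.56, PER2 0.26 and per2 0.40 without a collection term. In the first collection alone they were ENTPD7 0.54, etnk2 0.70, lipg 1.64, nr1d4a -0.14, PER2 1.1, per2 2.17, rorca -0.04 and si:ch1073-55a19.2 0.13, and in the second alone cry-dash -0.02 and elovl1a -0.29. Leaving out 1 library gave lipg -1.08 to 0.47, PER2 -0.53 to 0.34, per2 -2.25 to 0.72 and cry2 -0.07 to 0.15. Apart from the block and the fits on fewer samples, the cause of these changes was not tested. Fish of a collection and time differed by more than counting error. Depth was not varied. With 4 fish per time, changes of 1 log2 unit were recovered only in part in simulated counts. These held few changed genes, so this does not give the power of the comparison.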

Other observations

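One of the 2 libraries of 5 PM in the first collection, replicate A, stood apart as a whole. Its cytosolic ribosomal protein sum was 143900 CPM, against 53380 CPM in replicate B. It had the lowest total count (25736825) and the fewest genes detected (19609) of the 24 libraries. This library takes no part in the comparison of the 8 dawn and dusk libraries. It enters the fit with all 24 libraries and the counts of highest times over all 8 times of the first collection. In the 2 libraries of 5 PM, cry1ba had 4.82 and 110 CPM, PER2 6.41 and 79.4 CPM, and nfil3-6 1.90 and 13.2 CPM. At 2 PM and 8 PM of the same collection, cry1ba had 63.7 and 75.0 CPM and 99.6 and 84.6 CPM.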
